A study of Homo sapiens with 2 samples.

Results

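Cells that carried transcripts of CA12 or MGP were examined in mammospheres of the breast cancer cell line MDA-MB-231, which is mesenchymal in character and lacks the estrogen and progesterone receptors. A cell barcode counted as a member when it held at least 1000 unique molecular identifiers (UMIs, the tags that mark single captured transcripts) and at least 3 UMIs of CA12 and MGP summed. This gave 94 members among 1744 barcodes with at least 1000 UMIs. The 0 mM library came from cells adapted over 30 days of 2D culture in DMEM with high glucose and no metformin. The 2 mM library came from cells adapted in the same medium with 2 mM metformin, a biguanide known to inhibit respiratory chain complex I. Cells of both doses then spent 10 days as mammospheres on low-attachment plates before trypsin and EDTA were used to separate them. There was 1 library per dose, so no test was run, and every interval given covers counting error only. Ratios have intervals that are too narrow, because the variation among cells does not enter them.

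CA12 encodes carbonic anhydrase XII, an enzyme anchored in the cell membrane with its active site outside the cell, where it interconverts carbon dioxide and bicarbonate and so takes part in the control of pH. In breast cancer it is known mainly as a gene of luminal, estrogen receptor-positive tumours, and its relative CA9 is a classic target of hypoxia. MGP encodes matrix Gla protein, a small secreted protein that needs vitamin K-dependent carboxylation, inhibits calcification and binds bone morphogenetic proteins (BMPs).

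In the 0 mM library 70 of 944 barcodes were members, a share of 7.42% (exact binomial 95% interval 5.83 to 9.28). In the 2 mM library 24 of 800 were members, a share of 3% (1.93 to 4.43). Barcodes with 0 UMIs of both genes numbered 663 and 676 and served as the comparison within each library. The remaining 211 and 100 barcodes held 1 or 2 UMIs and entered neither group.

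Members were deeper than the barcodes they were compared with. Their median was 6320.5 UMIs against 3194 at 0 mM, and 5353.5 against 2967 at 2 mM. The share of members depended on depth by construction and went from 1.23% of 0 mM barcodes with 1000 to 1999 UMIs to 20% of those with at least 8000. In the same depth classes the 2 mM library went from 0.472% to 9.23%, and it lay below the 0 mM library in each of the 4 classes. After each barcode was thinned to 1000 UMIs, at least 1 CA12 UMI was left in 10.1% of 0 mM barcodes (8.22 to 12.2) and in 4.38% of 2 mM barcodes (3.07 to 6.03). Without thinning the shares were 25.6% and 11.3%. For MGP the thinned shares were 2.75% (1.81 to 4.01) and 1.88% (1.05 to 3.07), with overlapping intervals, against 7.10% and 5.38% unthinned. All cells are of 1 line, so there was no cell type known to lack CA12 or MGP against which to set RNA free in the suspension, and its part was not tested.

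**Figure D1:**
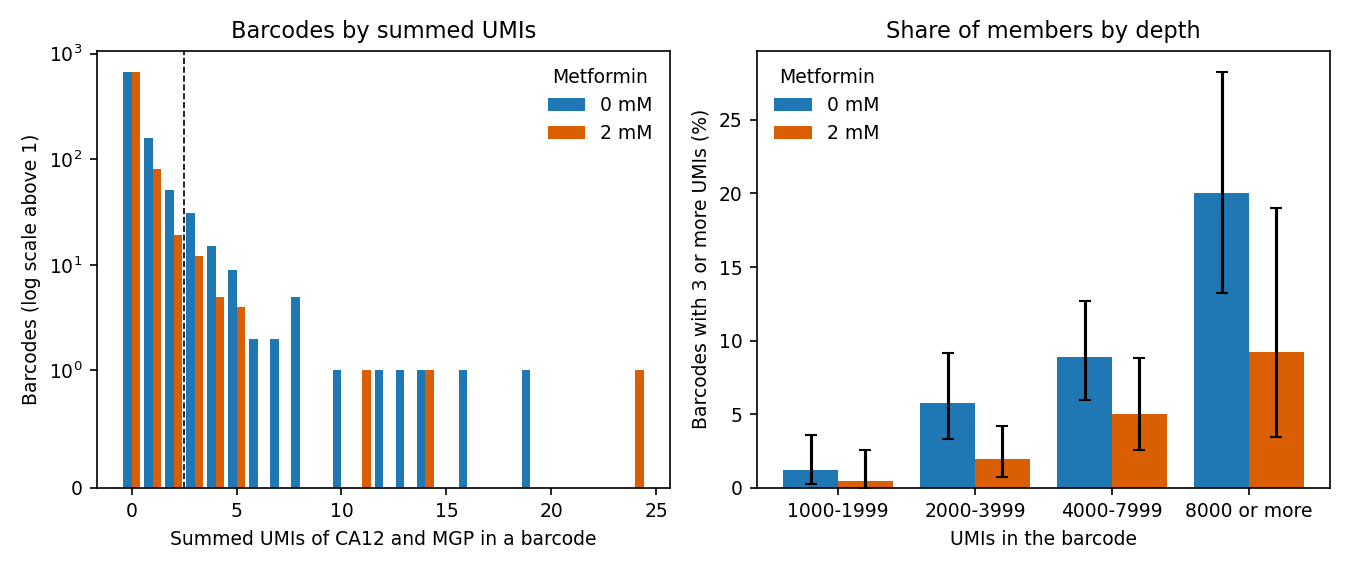
Left, number of barcodes (log scale above 1) by summed UMIs of CA12 and MGP in each library, with the dashed line at the rule's lower bound. Right, percent of barcodes that were members in 4 depth classes, with exact binomial 95% intervals as bars; the 0 mM bars run from 1.23% to 20% and the 2 mM bars from 0.472% to 9.23%.

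The rule used the counts of CA12 and MGP, so their levels are given as a description. In the 0 mM library CA12 had 473 UMIs and MGP 137, or 109 and 31.5 CPM (counts per 1000000 UMIs). In the 2 mM library CA12 had 138 UMIs and MGP 106, or 44.2 and 34.0 CPM. The smaller number of members at 2 mM therefore stood beside a lower CA12 level and a similar MGP level. Members held 53.9% of the CA12 UMIs at 0 mM and 36.2% at 2 mM, and 67.9% and 70.8% of the MGP UMIs.

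Most members held UMIs of only 1 of the 2 genes. At 0 mM, 44 members had CA12 UMIs only, 6 had MGP UMIs only and 20 had both. At 2 mM the numbers were 9, 7 and 8. At least 3 UMIs of each gene were found in 6 members at 0 mM and in 0 at 2 mM. Of the members with at least 3 MGP UMIs, 8 of 14 at 0 mM and 1 of 8 at 2 mM held any CA12 UMI. Over all barcodes with at least 1000 UMIs, 28 of 67 with MGP at 0 mM also held CA12, and 9 of 43 at 2 mM. For all barcodes regardless of MGP, the shares with CA12 were 25.6% and 11.3%. Depth was not held equal in these shares, and the overlap was not tested. The highest MGP count in 1 barcode was 13 at 0 mM and 24 at 2 mM, and 3 barcodes held 30 and 47 of all MGP UMIs. The highest CA12 count was 13 and 5. The 3 barcodes with most CA12 held 31 and 13 of its UMIs. Any CA12 UMI was found in 242 barcodes at 0 mM and 90 at 2 mM, and any MGP UMI in 67 and 43. At 2 mM 3 barcodes thus carried 47 of 106 MGP UMIs, and at 0 mM a smaller part, 30 of 137.

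**Figure D2:**
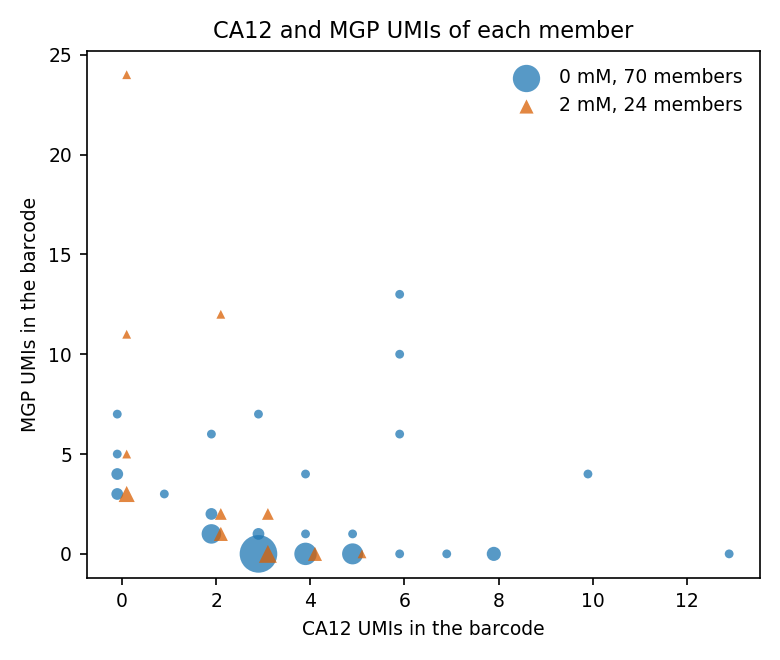
MGP UMIs (vertical) against CA12 UMIs (horizontal) in each member, with the area of a mark growing with the number of members at that point. Most 0 mM members lie along the CA12 axis, and 1 member at 2 mM reaches 24 MGP UMIs with no CA12.

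Just inside the rule, 31 barcodes at 0 mM and 12 at 2 mM had exactly 3 summed UMIs. Just outside it, 51 and 19 had exactly 2. Their median depths were 4138 and 4810.5 UMIs inside and 4542 and 4754 outside. The boundary is therefore set by single UMIs and divides barcodes of like depth.

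The label was checked against breast cell markers. CA12 is known as a luminal gene, but the members did not carry a luminal profile. ESR1, the estrogen receptor, had 1 UMI over the 70 members at 0 mM and 0 over the 24 at 2 mM. PGR, TFF1, AGR2, CDH1, SPDEF, SCUBE2 and ERBB3 had 0 UMIs in the members of both libraries. Of the 18 luminal markers found in the table, 4 were high enough to compare. KRT8 stood at 0.90-fold, KRT18 at 0.92-fold, KRT19 at 1.15-fold and XBP1 at 0.61-fold in members at 0 mM. The summed level of the 18 markers was 957 CPM in members and 1046 CPM in the comparison barcodes at 0 mM, and 978 and 1207 CPM at 2 mM.

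All 8 fibroblast markers had 0 UMIs in the members of both libraries. In the comparison barcodes they had 16 UMIs in each library, or 5.92 and 6.43 CPM, so these zeros lie near the floor. The leukocyte markers summed to 21.8 CPM in members and 25.9 in comparison barcodes at 0 mM. At 2 mM these sums were 25.9 and 24.5 CPM. The endothelial markers summed to 3.97 CPM in members, from 2 UMIs, and 0.37 in comparison barcodes at 0 mM, and to 0 and 4.02 at 2 mM. The smooth muscle markers summed to 17.9 CPM in members and 20.4 in comparison barcodes at 0 mM, and to 13.0 and 16.1 at 2 mM. Of the cartilage markers, SOX9 alone had UMIs in members, at 85.4 CPM against 78.8 CPM at 0 mM and 58.3 CPM against 71.9 CPM at 2 mM. COL2A1 and MATN3 had 0 UMIs in members. The members are therefore described here as MDA-MB-231 barcodes with CA12 or MGP UMIs, and given no cell type name.

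The comparison asked how these barcodes differed from the barcodes of their own library without either transcript. UMIs were summed within each group, scaled to CPM and divided. A gene was compared where 1 of the groups reached 50 CPM and both together held 50 UMIs or more. At 0 mM, 40 of 4096 genes (0.977%) were at least 2-fold higher in members and 49 (1.2%) at least 2-fold lower. At 2 mM, 165 of 4384 (3.76%) were higher and 250 (5.7%) lower. The larger counts at 2 mM rest on 154336 member UMIs against 503797 at 0 mM, so single genes were measured less closely there. The median ratio over all genes was 0.04 on the log2 scale at 0 mM and 0.03 at 2 mM. Over all genes, 55.2% were above 1 at 0 mM and 52.3% at 2 mM, and the counts of list genes above or below 1 that follow are to be read against these shares.

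HLA class II genes, which present peptides from the endocytic route to helper T cells, had the highest median of the lists compared in members at 0 mM. Of 8 class II presentation genes compared, 6 were at least 2-fold higher, beside 0.977% of all genes. Their median log2 ratio was 1.16, beside 0.04 for all genes. HLA-DRA, the invariant alpha chain of HLA-DR, was at 1133 CPM in members, 620 CPM in barcodes with 1 or 2 UMIs of CA12 and MGP, and 458 CPM in barcodes with none. The group that the comparison left out thus lay between the other groups. Members were 2.48-fold higher than barcodes with none (2.24 to 2.74). Of 70 members, 62 had an HLA-DRA UMI, and the barcode with most held 5.43% of them.

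HLA-DRB1, a partner beta chain of HLA-DRA, was at 669 CPM against 227 CPM, a ratio of 2.94 (2.57 to 3.37). HLA-DPB1 and HLA-DPA1, the chains of HLA-DP, stood at 2.28-fold (1.86 to 2.77) and 2.07-fold (1.77 to 2.40). HLA-DMA and HLA-DMB, which together load peptide onto class II molecules, stood at 2.18-fold (1.73 to 2.73) and 2.36-fold (1.65 to 3.35). CD74, the invariant chain that guides class II molecules through the cell, was at 2817 CPM against 1668 CPM, a ratio of 1.69 (1.59 to 1.79). CTSS, the protease that trims CD74, went the other way at 0.70-fold (0.48 to 0.98). Reads from HLA-DRB1 and its near-identical relatives may be divided between them, so the value of any 1 of these genes is uncertain.

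At 2 mM the median of the list lay near a ratio of 1. HLA-DRA was at 1238 CPM in members, 1348 CPM in barcodes with 1 or 2 UMIs and 1198 CPM in barcodes with none, a ratio of 1.03 (0.89 to 1.20). CD74 was at 2793 CPM against 2719 CPM. HLA-DPB1 stood at 1.36-fold (1.06 to 1.71), and at 1.61-fold with depth weighting. Of 10 class II genes compared, 0 were at least 2-fold higher, beside 3.76% of all genes. CTSS was at least 2-fold lower, and the median log2 ratio was 0.04. That median changed sign with the scaling, to -0.02 with TMM factors.

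The class II levels of the 2 libraries lay further apart in the comparison barcodes than in the members. HLA-DRA in members at 2 mM over members at 0 mM was 1.09 (0.92 to 1.29), and in barcodes with neither transcript it was 2.62. For HLA-DRB1 the values were 1.06 and 3.11, and for CD74 0.99 and 1.63. HLA-DPB1 was higher at 2 mM in both, at 1.72 and 2.89. Whether the ratio at 0 mM differs from that at 2 mM was not tested, since there was 1 library per dose.

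The same order of the 3 groups held per barcode after thinning, although membership was still set at full depth. After thinning to 1000 UMIs, the class II list had a median of 2 UMIs in 0 mM barcodes without CA12 and MGP, 4 in barcodes with 1 or 2 UMIs and 6 in members. At least 3 class II UMIs were present in 78.6% of members (67.1 to 87.5) and in 49.2% of barcodes with none (45.3 to 53.05). No step was seen at the boundary of the rule at 0 mM. Barcodes with exactly 2 summed UMIs and those with exactly 3 both had a class II median of 4. At least 3 class II UMIs were present in 72.5% (58.3 to 84.1) and 64.5% (45.4 to 80.8) of them. At 2 mM all 3 groups had a median of 5. The 2 distributions at 0 mM overlapped, with quartiles of 3 and 9 in members and 1 and 4 in barcodes with none. The ratio of the summed list at 0 mM varied with depth. Members stood at 1.63-fold among barcodes with 1000 to 3999 UMIs, at 1.75-fold with 4000 to 7999 and at 2.70-fold above that.

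**Figure D3:**
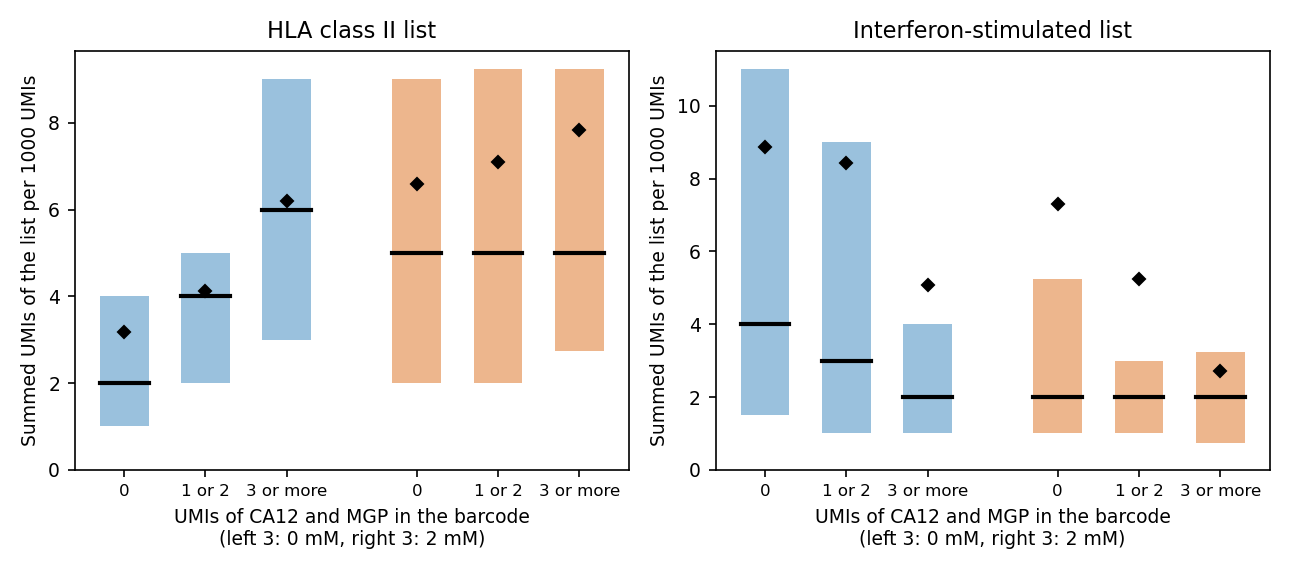
Summed UMIs per 1000 UMIs of the HLA class II list (left) and the interferon-stimulated list (right) in barcodes with 0, with 1 or 2, and with 3 or more UMIs of CA12 and MGP; boxes span the quartiles, the line is the median and the diamond the mean. The class II median goes from 2 to 4 to 6 at 0 mM and stays at 5 at 2 mM.

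Class II genes are switched on together through a conserved set of promoter elements, of which the Y box is bound by the factor NF-Y. The letters CTGATTGG were sought on both strands of RefSeq promoters (250 bases before to 50 after the start, GRCh38.p14), whose build is not that of the counts. They were found in 4 of the 9 class II promoters at hand, beside 3.97% of 35116 promoters. The stretches around them are shown because this list had the highest median in the members. Capitals mark the match, and each sequence reads 5′ to 3′ on the gene's strand, the minus strand of chromosome 6.
HLA-DRB1, chr6:32589870-32589917: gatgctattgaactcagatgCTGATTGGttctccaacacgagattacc
HLA-DRB5, chr6:32530353-32530400: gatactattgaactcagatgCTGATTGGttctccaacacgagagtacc
HLA-DQB1, chr6:32666721-32666768: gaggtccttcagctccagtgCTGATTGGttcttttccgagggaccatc
HLA-DMA, chr6:32953152-32953199: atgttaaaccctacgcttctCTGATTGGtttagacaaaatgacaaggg
The CA12 promoter held no such match, which says only that these letters are not in its window.

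Beyond class II, the genes with the highest ratios at 0 mM had varied functions. NQO1, a quinone reductase and target of the oxidative stress factor NRF2, was at 1868 CPM in members, 1011 CPM in barcodes with 1 or 2 UMIs and 878 CPM in barcodes with none. Its ratio was 2.13 (1.97 to 2.29), and 67 of 70 members had an NQO1 UMI. At 2 mM NQO1 was at 654 CPM against 456 CPM, a ratio of 1.44 (1.16 to 1.76). NQO1 was thus higher in members of both libraries. The median log2 ratio of 13 NRF2 targets and ferritin genes was 0.16 at 0 mM.

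PAGE5, a cancer-testis antigen, had the highest ratio at 4.58 (2.83 to 7.37), from 35 UMIs in 17 members. NINJ2, a cell adhesion protein, stood at 3.89-fold (2.59 to 5.81) and FZD7, a Wnt receptor, at 3.62-fold (2.18 to 5.93). SLC6A6, the taurine transporter, stood at 3.19-fold (2.23 to 4.54), and NRP2, a co-receptor for semaphorins and vascular growth factors, at 2.48-fold (1.72 to 3.52). PRNP, the prion protein, was at 778 CPM against 389 CPM, a ratio of 2.00 (1.78 to 2.25). GPR116, PHYHD1 and FAM213A made up the rest of the 15 genes named, at 2.79-, 2.52- and 2.08-fold.

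These 15 genes were named by rank in the 0 mM library, so the 2 mM library is the one their choice did not use. There 11 of them were high enough to compare, 7 were above 1 and 0 reached 2-fold, beside 52.3% and 3.76% of all genes. In the members of the 2 libraries, 4 genes were at least 2-fold higher in both. They were BUB1B, PSAT1, SPAG5 and a gene listed only by its clone name. These 4 make up 10% of the genes higher at 0 mM, beside the 3.76% of all genes that were higher at 2 mM. They make up 2.42% of the genes higher at 2 mM, beside the 0.977% of all genes that were higher at 0 mM. BUB1B and SPAG5 act in mitosis and PSAT1 makes serine. The median of G2/M genes at 0 mM depended on depth, at 0.48 and at 0.03 with depth weighting.

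**Figure D4:**
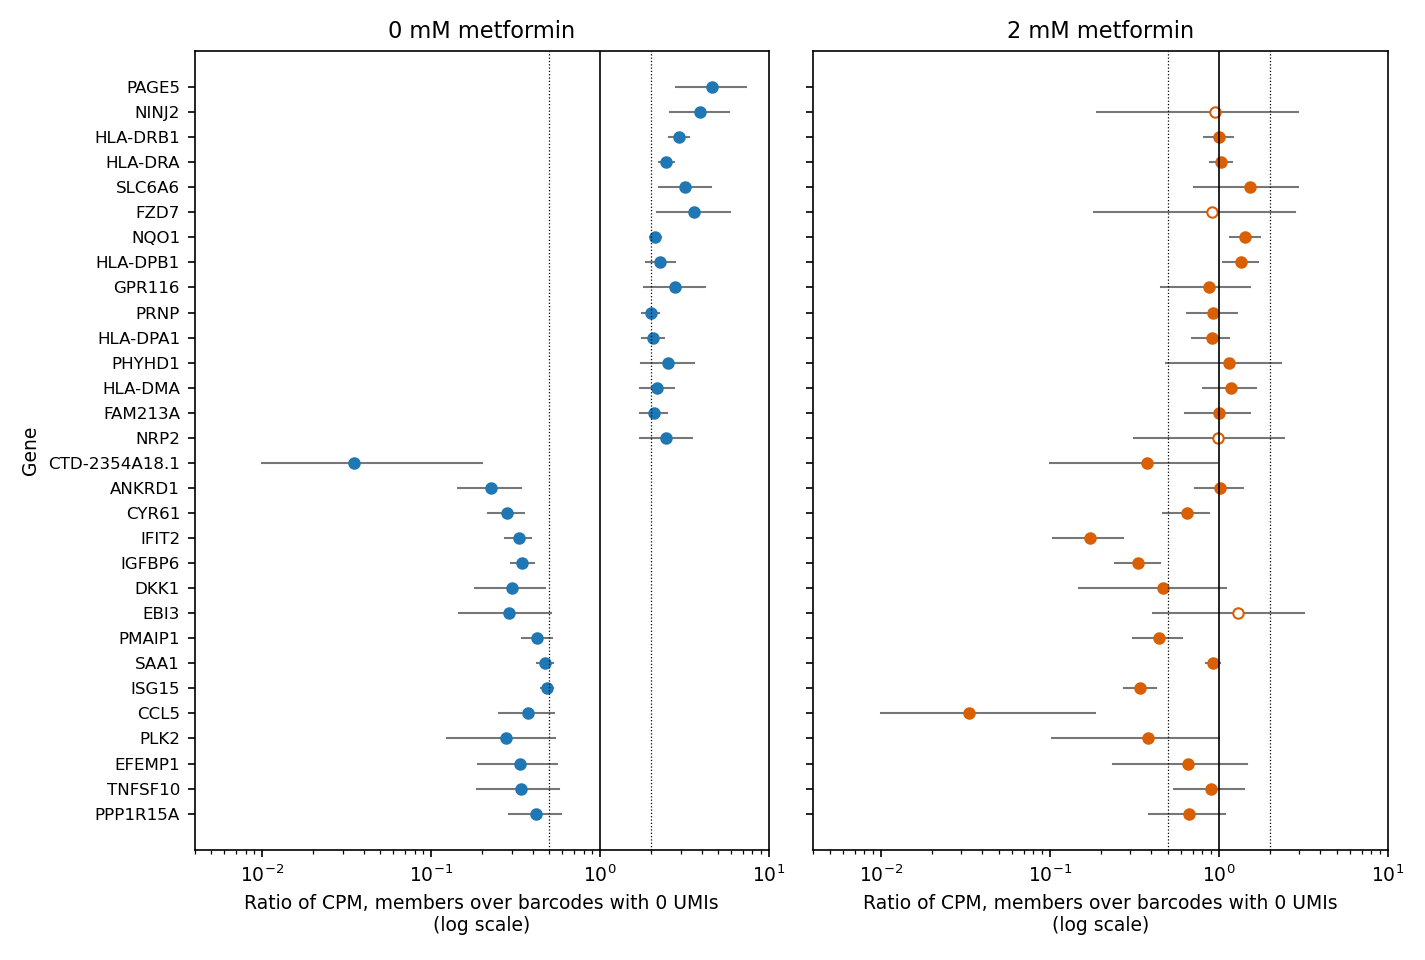
Ratio of CPM in members over barcodes with 0 UMIs of both genes (log axis) for the 15 highest and 15 lowest genes named at 0 mM, in each library, with exact 95% intervals for counting error; dotted lines mark 2-fold and open marks fall below the minimum for comparison. The higher genes gather near 1 at 2 mM, while 8 of the lower genes stay past 2-fold.

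Part of the genes lower in members at 0 mM were lower at 2 mM as well. Of the 15 lowest genes named at 0 mM, 14 could be compared at 2 mM. There 13 were below 1 and 8 were at least 2-fold lower, beside 47.7% and 5.7% of all genes. IGFBP6, a secreted binder of insulin-like growth factor II, was at 337 CPM in members, 699 CPM in barcodes with 1 or 2 UMIs and 969 CPM in barcodes with none at 0 mM. The ratio was 0.35 (0.30 to 0.41). At 2 mM the 3 levels were 292, 651 and 876 CPM, with a ratio of 0.33 (0.24 to 0.45). The order of the 3 levels was the same in both libraries. At 2 mM 1 barcode held 60% of the 45 member UMIs, and without it the ratio was 0.14, against 0.31 at 0 mM without the barcode that held most.

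PMAIP1, the pro-apoptotic protein NOXA, stood at 0.43-fold (0.35 to 0.52) at 0 mM and 0.44-fold (0.31 to 0.61) at 2 mM. CCL5, a chemokine that draws T cells, stood at 0.37-fold (0.25 to 0.54) at 0 mM, where 1 barcode gave 59.4% of the member UMIs and the ratio without it was 0.16. At 2 mM CCL5 had 1 UMI in members and 484 in the comparison barcodes. DKK1, a secreted Wnt inhibitor, stood at 0.30-fold (0.18 to 0.48) at 0 mM, with 55% of its 20 member UMIs in 1 barcode and a ratio of 0.14 without it. At 2 mM it stood at 0.47-fold (0.15 to 1.11), and at 0.28-fold without the barcode that held most. CTD-2354A18.1 had 1 UMI in members at 0 mM against 152 in the comparison barcodes, and 4 against 172 at 2 mM. In all, 16 genes were at least 2-fold lower in members of both libraries. They make up 32.7% of the 49 at 0 mM, beside the 5.7% of all genes that were lower at 2 mM. Of the 250 at 2 mM they make up 6.4%, beside the 1.2% of all genes that were lower at 0 mM. Among them were also IL6, an inflammatory cytokine, FST, a binder of activins and BMPs, JUNB and ZFP36 of the immediate early genes, and CXCL10, an interferon-induced chemokine.

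Targets of the mechanical and growth regulator YAP and of TGF-beta were lower in members at 0 mM. Of 9 compared, 8 were below 1 and 3 at least 2-fold lower, beside 1.2% of all genes, with a median log2 ratio of -0.62. ANKRD1, a YAP target, was at 47.6 CPM in members against 209 CPM, a ratio of 0.23 (0.14 to 0.34). CYR61 was at 141 CPM against 500.4 CPM, a ratio of 0.28 (0.22 to 0.36), and 1 barcode held 39.4% of its 71 member UMIs. Without that barcode its ratio was 0.17. CTGF stood at 0.44-fold (0.29 to 0.64). At 2 mM the list was divided, with 5 of 10 genes below 1 and a median of -0.15. ANKRD1 was there at 266 CPM against 261 CPM, and CYR61 at 292 CPM against 451 CPM.

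Immediate early genes, which answer growth factors and handling within minutes, were below 1 in members for 8 of 8 genes at 0 mM and 6 of 8 at 2 mM. The medians were -0.68 and -0.80. ZFP36, which marks cytokine RNAs for decay, stood at 0.33-fold (0.15 to 0.62) at 0 mM and JUNB, a subunit of AP-1, at 0.43-fold (0.29 to 0.63). The genes of the NF-kB and acute phase list were below 1 for 11 of 13 genes at 0 mM, with a median of -0.66, and for 13 of 18 at 2 mM, with a median of -0.23. SAA1, serum amyloid A, was at 800 CPM against 1687 CPM at 0 mM, a ratio of 0.47 (0.43 to 0.53). At 2 mM it was at 3123 CPM against 3375 CPM, a ratio of 0.93. IL6 stood at 0.39-fold (0.25 to 0.60) at 0 mM and 0.23-fold (0.07 to 0.54) at 2 mM.

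Interferon-stimulated genes, the antiviral set switched on by interferon receptors, had lower summed levels in members at 2 mM. There 17 of 23 were at least 2-fold lower, beside 5.7% of all genes, and the median was -1.54. The typical barcode differed less. After thinning, the list had a mean of 2.71 UMIs in members and 7.30 in barcodes with none, but a median of 2 in both. At least 3 UMIs of the list were present in 37.5% of members (18.8 to 59.4) and 43.8% of barcodes with none (40.0 to 47.6). ISG15, a ubiquitin-like modifier, was at 583 CPM against 1693 CPM, a ratio of 0.34 (0.28 to 0.42). Of its 90 member UMIs, 58 came from 1 barcode, and without it the ratio was 0.13. HERC5, the ligase that attaches ISG15, stood at 0.13-fold (0.05 to 0.27) and ISG20, a nuclease, at 0.08-fold (0.02 to 0.20). In members 6 of the 7 HERC5 UMIs and 3 of the 4 ISG20 UMIs came from 1 barcode each, and the ratios without them were 0.019 and 0.021. With the barcode that held most left out for each gene, the median of the list was -2.17. IFI44 and RSAD2 had 0 UMIs in members, as did IFNL1, a type III interferon. A floor of 3 UMIs over the members would put IFNL1 6.97-fold lower, IFI44 4.98-fold and RSAD2 4.07-fold. The exact 95% intervals allow smaller differences, with upper ends at ratios of 0.18, 0.25 and 0.30. IFNL1 can come from single barcodes, since all 29 of its member UMIs at 0 mM lay in 1 barcode.

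At 0 mM 2 of 23 interferon-stimulated genes were at least 2-fold lower, beside 1.2% of all genes, 7 were at least 1.5-fold lower, and the median was -0.10. Their summed level was 5615 CPM in members and 8543 CPM in the comparison barcodes. ISG15 was at 1201 CPM in members against 2477 CPM, a ratio of 0.48 (0.45 to 0.53). IFIT2, which binds foreign RNA, was at 268 CPM against 810.1 CPM, a ratio of 0.33 (0.28 to 0.39). SAMD9L and XAF1 were above 1, at 1.62- and 1.52-fold. The summed level of the list depended on depth. Members stood at 0.29-fold among barcodes with 1000 to 3999 UMIs, at 0.52-fold among those with 4000 to 7999 and at 1.05-fold above that. At equal depth of 1000 UMIs the list had a median of 2 UMIs in members and 4 in barcodes with none at 0 mM, and of 2 in both groups at 2 mM.

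The response element of these genes was sought as GAAA, any 2 bases and GAAA again, on either strand. It was found in 17 of 27 promoters of the list and in 3.57% of all promoters. A few are shown for genes described here, again 5′ to 3′ on the gene's strand (plus in each) with the match in capitals.
ISG15, chr1:1013364-1013413: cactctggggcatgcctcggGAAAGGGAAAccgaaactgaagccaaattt
ISG20, chr15:88638927-88638976: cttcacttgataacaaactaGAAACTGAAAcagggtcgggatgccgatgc
HERC5, chr4:88456974-88457023: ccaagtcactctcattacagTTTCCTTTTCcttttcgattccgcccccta
In HERC5 the match lies on the opposite strand. The CA12 promoter held no match to this motif either.

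Glycolysis and hypoxia genes took opposite sides in the 2 libraries. At 0 mM all 13 glycolysis genes compared were above 1, with a median log2 ratio of 0.47, and 1 was at least 2-fold higher. PKM, pyruvate kinase, was at 2630 CPM in members against 1545 CPM, a ratio of 1.70 (1.60 to 1.81). ENO1, enolase, stood at 1.55-fold (1.45 to 1.66) and ALDOC, an aldolase, at 2.27-fold (1.41 to 3.59). At 2 mM 1 of 13 was above 1 and the median was -0.34. PKM was there at 810 CPM against 1033 CPM, a ratio of 0.78 (0.65 to 0.94).

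Hypoxia targets outside glycolysis were above 1 for 10 of 12 genes at 0 mM, with a median of 0.44, and for 2 of 14 at 2 mM, with a median of -0.53. DDIT4, a brake on mTOR, stood at 1.94-fold (1.71 to 2.19) at 0 mM and 1.06-fold at 2 mM. BNIP3, which acts in removal of mitochondria, stood at 1.72-fold (1.38 to 2.13) and 0.51-fold (0.25 to 0.92). NDRG1, a stress-induced protein, stood at 1.55-fold (1.11 to 2.13) at 0 mM and had 1 UMI in members at 2 mM. At equal depth the hypoxia list had a median of 2 UMIs in members and 1 in barcodes with none at 0 mM, and of 1 and 2 at 2 mM. Members with at least 3 CA12 UMIs were 54 of 70 at 0 mM and 11 of 24 at 2 mM, so the members differed in kind. The difference between the libraries, and the part of this unlike mix in it, was not tested.

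**Figure D5:**
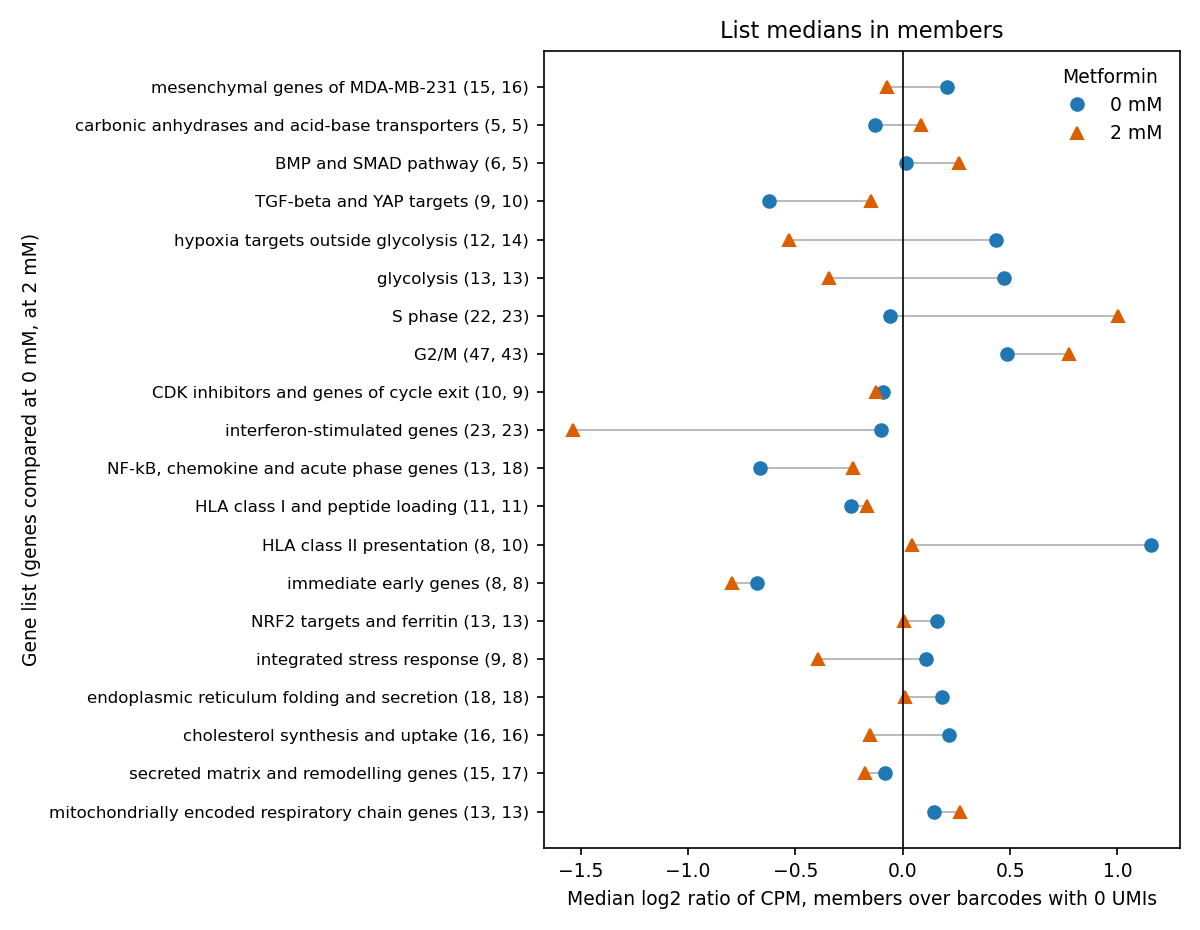
Median log2 ratio of CPM in members over barcodes with 0 UMIs of CA12 and MGP for 20 gene lists, at 0 mM (circles) and 2 mM (triangles), with the number of genes compared at each dose in brackets. HLA class II lies at 1.16 and 0.04, glycolysis at 0.47 and -0.34, and interferon-stimulated genes at -0.10 and -1.54.

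Genes that work beside CA12 in pH control did not share its pattern as a group. Of 5 acid-base genes compared at 0 mM, 2 were above 1. SLC16A3, the lactate exporter MCT4, was at 320 CPM in members against 216 CPM at 0 mM, a ratio of 1.48 (1.24 to 1.77), and at 155 CPM against 258 CPM at 2 mM, a ratio of 0.60 (0.38 to 0.91). CA9 had 24 UMIs in members at 0 mM, or 47.6 CPM against 19.6 CPM, below the minimum for comparison. It had 1 UMI in members at 2 mM. BSG, the chaperone of lactate transporters, stood at 0.84-fold and 1.39-fold.

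The genes of the vitamin K cycle compared at 0 mM lay near 1. GGCX, the carboxylase that modifies MGP, stood at 0.95-fold at 0 mM, and VKORC1, which recycles vitamin K, at 0.99-fold. GAS6, another Gla protein, stood at 1.09-fold. At 2 mM 3 of 3 genes compared were above 1, with a median log2 ratio of 0.26. Among BMP genes, BMP4, a ligand, was at 385 CPM in members against 254 CPM at 0 mM, a ratio of 1.51 (1.28 to 1.78), and stood at 0.84-fold at 2 mM. ID1, a BMP target, was at 1.01-fold and 1.48-fold. FST stood at 0.42-fold (0.23 to 0.70) and 0.39-fold (0.14 to 0.87).

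Mesenchymal genes of the line were present in members. At 0 mM 13 of 15 were above 1, with a median of 0.21, and at 2 mM 7 of 16, with a median of -0.07. S100A4, a calcium-binding protein linked to motility, stood at 1.77-fold (1.62 to 1.92) at 0 mM and 0.83-fold (0.73 to 0.94) at 2 mM. TGFBI and FN1, both matrix proteins, stood at 1.67- and 1.504-fold at 0 mM.

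Values of cell cycle genes depended on depth. G2/M genes had a median of 0.48 at 0 mM, and of 0.03 once the comparison barcodes were weighted to the depths of the members. At 2 mM the median was 0.78 for G2/M genes and 1.0 for S-phase genes, of which 12 of 23 were at least 2-fold higher, beside 3.76% of all genes. With the barcode that held most left out for each gene, these medians were 0.21 and 0.45. Without the 5% deepest barcodes these 2 mM medians were -0.05 and 0.11. At equal depth, at least 3 G2/M UMIs were found in 58.6% of members and 53.2% of barcodes with none at 0 mM. At 2 mM these shares were 50% (29.1 to 70.9) and 43.5% (39.7 to 47.3). For S-phase UMIs the shares at 2 mM were 25% (9.77 to 46.7) and 26.3% (23.0 to 29.8), with a median of 1 UMI in both groups.

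Weighting the comparison barcodes to the members' depths left 15 of the 15 highest and 14 of the 15 lowest named genes past 2-fold at 0 mM, where 1.21% of all genes were then higher and 1.21% lower. ISG15 was the exception, at 0.58-fold. The class II median was then 1.37 at 0 mM and 0.28 at 2 mM.

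Members with at least 3 CA12 UMIs (54 at 0 mM, 11 at 2 mM) and members with at least 3 MGP UMIs (14 and 8) were also described apart. They share 6 barcodes at 0 mM, and their difference was not tested. The class II median at 0 mM was 1.25 for the CA12 members and 1.0 for the MGP members. The glycolysis median was 0.53 and -0.06. The interferon median was -0.69 and 0.59 at 0 mM, and -1.90 and -0.07 at 2 mM. The class II medians were thus alike for the 2 kinds of member. The interferon medians over genes at 0 mM had opposite signs, and the glycolysis median of the MGP members was small. Per barcode after thinning, both kinds lay on the same side at 0 mM. The interferon list had a median of 2 UMIs in CA12 members and in MGP members, and 4 in barcodes with none. The glycolysis list had a median of 16 UMIs in CA12 members, 13 in MGP members and 10 in barcodes with none.

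The barcodes of both libraries were clustered on 2000 variable genes without CA12 and MGP, giving 6 clusters. Of the 70 members at 0 mM, 35 (50%) fell in 1 cluster of 321 barcodes, which held 34.0% of 0 mM barcodes. CA12 was at 231 CPM there. In the other 0 mM clusters with members, CA12 ranged from 46.0 to 94.2 CPM. That cluster was also the shallowest, with a median of 2198 UMIs, and is led after CA12 by NQO1 and MTRNR2L8. The mitochondrial rRNA MT-RNR2 is also among its leading genes. Members made up 10.9% of its 0 mM barcodes (7.71 to 14.8), beside 10.8% (4.78 to 20.2) in the mitotic cluster. The interferon-led cluster held 14 members (20%) and 30.4% of 0 mM barcodes. At 2 mM the members were spread, with 9 of 24 in a cluster led by LCN2, TNFRSF11B and CXCL1, which held 30.9% of barcodes. There was 1 in the cluster led by CA12 and NQO1, which held 6.63%, and 1 in the interferon-led cluster, which held 13.4%.

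Within clusters the class II sum stayed higher in 0 mM members. In the 4 clusters with at least 5 members the ratio was 1.67, 2.37, 3.40 and 2.16. NQO1 stood at 1.79-fold (1.59 to 2.02) within the cluster that it leads, and at 2.55-fold (2.15 to 3.02) within the interferon-led cluster. In the mitotic cluster, led by CCNB1 and KIF20A, it stood at 1.11-fold. IGFBP6 was at 0.39-fold within the interferon-led cluster and 0.31-fold within the cluster led by CA12 and NQO1. Within the S-phase and mitotic clusters it was at 0.91- and 1.46-fold. Other named genes varied as well. PAGE5, NRP2 and PRNP stood at 0.56-, 0.62- and 1.02-fold within the interferon-led cluster, where PAGE5 had 2 member UMIs. In the cluster led by CA12 and NQO1 they stood at 9.78-, 2.06- and 2.29-fold. The S-phase cluster gave 5.89-, 4.71- and 2.44-fold, and the mitotic cluster 4.68-, 0.80- and 1.56-fold.

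Mitochondrially encoded UMIs made up 5.51% in members and 5.42% in comparison barcodes at 0 mM, and 5.66% and 5.196% at 2 mM. The libraries shared 0 barcodes. Barcodes 1 base apart, which may be 1 cell counted apart, numbered 0 among members at 0 mM and 1 at 2 mM. Over all barcodes with at least 1000 UMIs they numbered 101 and 68. Merging them left 605 comparison barcodes and 70 members at 0 mM, and 666 and 26 at 2 mM.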

How the data were processed

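The authors deposited whole UMI counts for 19826 genes in 2000 barcodes, 1000 per library. Tools in the submitters' processing notes are STAR 2.5.0a and bcl2fastq, with build hg19. How barcodes were selected, UMIs collapsed and genes annotated, and whether strand was used, is not given in the sources used here. Columns were assigned to a library by name. Barcodes with at least 1000 UMIs were kept (944 and 800, with 4351972 and 3118941 UMIs); no doublet caller was run. UMIs were summed per group and scaled to CPM, and ratios have exact conditional Clopper-Pearson 95% intervals. Genes named are the 15 highest and 15 lowest at 0 mM by the interval bound nearest 1, leaving out CA12, MGP, mitochondrial, ribosomal protein and pseudogenes, and up to 3 highest and lowest genes of each of 32 lists. Genes named as shared between the libraries, or low at 2 mM, were added by their values. The members and lists were chosen with earlier results of these data known. Clusters used scanpy 1.11.5 (Leiden, 20 components, 15 neighbours, resolution 0.5), TMM edgeR 4.0.16. The ratio script was tested on simulated data.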

Additional observations from a re-analysis of the deposited data

Results flagged for a closer look

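Both lists below were picked out because at least 80% of their compared genes lay above 1 in members of one library and at least 80% below 1 in members of the other; that bound was chosen after the values were seen, and the difference was not tested. For glycolysis genes the median log2 ratio of members over barcodes with 0 UMIs of CA12 and MGP was 0.47 at 0 mM and -0.34 at 2 mM. For hypoxia targets outside glycolysis it was 0.44 at 0 mM and -0.53 at 2 mM. The members of the 2 libraries differed in kind, since 54 of 70 at 0 mM and 11 of 24 at 2 mM held at least 3 CA12 UMIs.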

How the results depend on the processing

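Limits. There was 1 library per dose, so neither library nor culture effects can be told apart from dose, and no paired analysis was possible. Members are chosen by 3 or more UMIs, so depth limits who is found, and fewer members raise the number of genes past 2-fold by construction. The share of members moved to 9.56% at 0 mM with a minimum of 2000 UMIs. It moved to 12.8% and 5.38% (0 mM, 2 mM) with at least 2 summed UMIs, to 2.54% and 0.875% with at least 5, and to 0.424% and 0.375% after thinning to 1000 UMIs. Genes at least 2-fold higher and lower at 0 mM, 40 and 49, became 236 and 217 at 1.5-fold, 120 and 147 with at least 5 summed UMIs, 61 and 83 with barcodes weighted equally, and 90 and 239 with no CPM minimum. They became 81 and 110 without the 5% deepest barcodes; 24 were lower with at least 2 summed UMIs. At 2 mM, 165 and 250 became 546 and 608 at 1.5-fold, 630 and 856 with at least 5 and 62 and 116 with at least 2 summed UMIs, and 823 were lower with no CPM minimum. Without the 5% deepest barcodes the 2 mM G2/M median turned to -0.054 and DKK1 to 0.12 on the log2 scale; the cause was not tested. The other alternatives were chosen after seeing the data. With cycle UMIs below 3 after thinning, 106 and 192 genes were higher and lower at 0 mM and 550 lower at 2 mM, and DKK1 turned to 0.26 at 2 mM. With at least 3 CA12 UMIs, 78 were lower at 0 mM, and 421 and 416 higher and lower at 2 mM. With at least 3 MGP UMIs the numbers were 244 and 288 at 0 mM and 620 and 901 at 2 mM. CCL5 then turned to 0.38 at 0 mM, and DKK1 to 0.32, IGFBP6 to 0.035 and ISG15 to 0.15 at 2 mM. With at least 3 summed UMIs after thinning only 4 and 3 members were left, and 1131 and 1064 genes at 0 mM and 1131 and 1991 at 2 mM passed 2-fold. The signs then turned for PRNP (-0.36), CTD-2354A18.1 (1.43), DKK1 (0.21), EBI3 (0.88), EFEMP1 (0.69), PLK2 (1.23), TNFSF10 (0.79) and the YAP and TGF-beta list (0.20) at 0 mM. At 2 mM they turned for CCL5 (1.12), CTD-2354A18.1 (1.03), DKK1 (2.61), PLK2 (2.65), PMAIP1 (0.79), the immediate early list (2.33), the interferon list (0.60) and the hypoxia list (1.63). The class II median at 0 mM stayed between 0.86 and 1.37 under all alternatives run. Leaving out barcodes with 3 or more S-phase or G2/M UMIs, as planned, left 0 members and gave no value.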
